A study of Sus scrofa with 9 samples.

Results

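Cell cycle and DNA replication genes were examined in the outflow veins of pig arteriovenous fistulas (AVFs, in which a vein is stitched to an artery so that blood can be drawn for dialysis). The set was a given list of 36 gene symbols, and a gene belonged to it when its symbol stood in the deposited expression table. Of the 36 symbols, 29 were found among the 30477 genes of the table, and all 29 passed the filter on low values that left 17884 genes for testing. MCM5, RRM2, CCNA2 and AURKA had no row of that symbol. CCNE1, BUB1B and NUSAP1 had a row that carried only a gene identifier and were not counted as members.

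All animals carried a chronic kidney disease model. The fistula joined carotid artery and jugular vein 28 days after the disease was induced, and the outflow vein was taken 28 days after that. In the MSC group, adipose-derived mesenchymal stem cells (MSCs) in Ringer's lactate were laid on the outer wall of the vein at fistula creation, whereas control veins were left untreated, with no vehicle stated. There were 3 control and 6 MSC libraries, made from 0.5 µg of total RNA, and the comparison asks how the treated vein differs from the untreated vein. The sources give no strain or age and no source animal of the MSCs. Each library name carries a different number, which the labels do not explain. No label says that the libraries come from different animals, so p-values measure the spread between these libraries. The name of control 2 carries the tags NT and F and that of MSC 1 the tags Allo and M, which the labels do not explain.

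A dividing cell first loads the MCM helicase onto replication origins, copies its DNA in S phase, and then builds a spindle that separates the copies in mitosis. Most of these genes are transcribed only while a cell cycles, under E2F factors around S phase and under FOXM1 and B-MYB before mitosis, so in bulk tissue their RNA tracks how many cells divide. In the vein wall of a fistula, division of smooth muscle cells and myofibroblasts is a known part of neointimal thickening. In bulk samples, fewer cycling cells and less RNA per cycling cell cannot be told apart.

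The libraries differed in ways that touch every result. Recovered reads ran from 16939157 in MSC 2 to 47417606 in MSC 5, and the 29 members together held between 7156 reads in MSC 6 and 34009 in MSC 4. The median correlation with the other libraries across genes, which are not independent replicates, was 0.708 for MSC 5 and 0.860 for MSC 6, against 0.919 to 0.955 for the others. MSC 2 had reads on 94.5% of the listed genes, against 71.7% to 84.2% in the others. MSC 2, MSC 5 and MSC 6 were sequenced on lane 7, which had no control, while lanes 5 and 6 held the 3 controls with MSC 1, MSC 3 and MSC 4. EIF1AY and KDM5D, which lie on the Y chromosome, together drew 571 to 5640 reads in each MSC library but MSC 3, which had 0. In a control they drew at most 1 read. For 5 of the 6 MSC libraries a possible difference in sex and the treatment thus cannot be told apart. Whether these reads reflect the sex of the animal or of the applied cells was not tested. Small RNA genes drew 53.3% of the reads of MSC 6 and 40.4% of those of control 2. The next highest share was 16.4%, in control 3. Protein-coding genes held 45.9% and 57.9% of the reads of MSC 6 and control 2, while every other library reached at least 80.3%. The part of small RNA reads in the member values was not tested. Values below are scaled RPKM, that is reads scaled to gene length and library size and divided by a factor that evens out library make-up. That factor was 0.407 in MSC 6, 0.753 in control 2, 0.804 in MSC 5 and 1.14 to 1.44 elsewhere. A factor under 1 raises the values. RPKM is per length, so levels of different genes are set side by side below. Their order and ratios depend on the listed gene lengths and, for overlapping genes, on how shared reads were counted.

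In all 9 libraries the members were, on average, slightly higher in the MSC group, and no single gene passed the test. Of the 29 members, 26 (89.7%) had a positive log2 fold change, against 55.3% of the genes tested. The median over the members was 0.33 on the log2(scaled RPKM + 1) scale, against 0.04 over all genes tested, and member values ran from -0.24 for PCNA to 0.76 for UBE2C. No member passed an adjusted p of 0.05 in limma-trend, and neither did any other gene (0% of 17884, the smallest adjusted p being 0.319). None reached an unadjusted p under 0.05 either, against 4.08% of all genes (729 genes). The smallest member p, for TPX2, was 0.108 (adjusted p 0.920, limma). With limma-voom on the recovered reads 0 genes passed as well, 817 of them having an unadjusted p under 0.05. No member had all 6 MSC libraries above or all 6 below the 3 controls, where 1.97% of genes did in each direction. By the ratio of group means, 12 members were at least 1.5-fold higher in the MSC group, against 31.9% of genes.

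**Figure D1:**
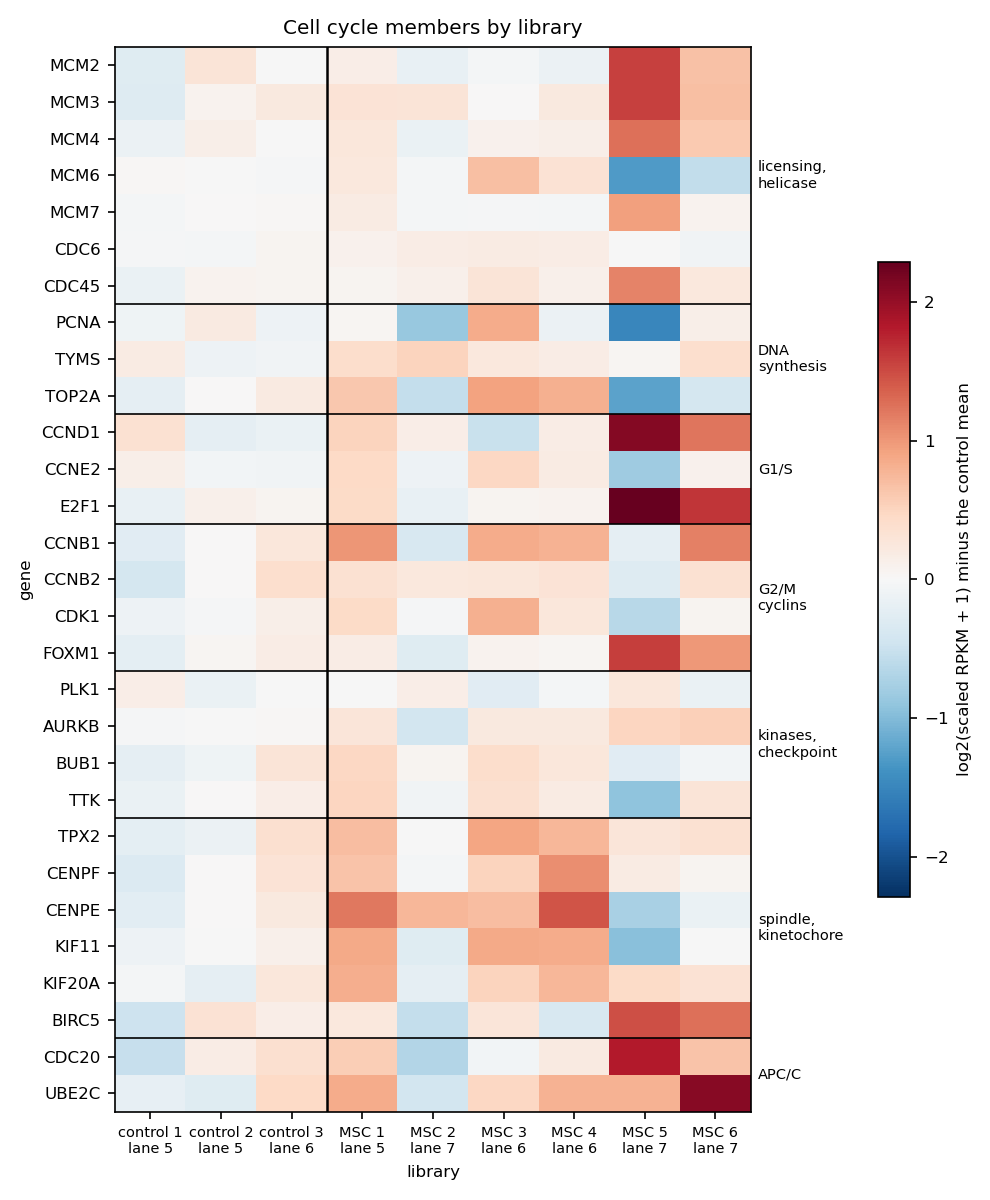
Level of each of the 29 members (rows, grouped by role) in each library (columns, with sequencing lane), as log2(scaled RPKM + 1) minus the mean of the 3 controls. MSC 1, MSC 3 and MSC 4 are mostly above the control mean, MSC 2 is mostly close to or below it, and MSC 5 holds both the highest value of 11 members and the lowest of 9.

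The picture was not alike across the 6 MSC libraries. In MSC 1, 22 of the 29 members lay above all 3 controls, against 25.1% of genes, and 0 lay below, against 26%. MSC 3, which like the controls lacked Y-linked reads, had 18 members above all controls (32% of genes) and 2 below (33.3%). MSC 4 had 16 above (28.2%) and 2 below (27.7%). MSC 2 was the other way, with 5 members above (35.1% of genes) and 13 below (34.5%).

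MSC 6 had 16 members above the controls (39.3% of genes) and 4 below (42.7%). In MSC 5, 14 members lay above (42.5% of genes) and 9 below (44.2%), so most members stood outside the control range on either side, as most genes of that library did. MSC 5 held the highest value of 11 members, against 31.7% of genes, and the lowest of 9, against 31.8%. The RPKM summed over the 29 members was 76.0, 85.4 and 94.98 in the controls. In the MSC libraries the sum was lowest in MSC 2 at 76.1, had a median of 128 and was highest in MSC 5 at 134. The 5 MSC libraries other than MSC 2 all lay above the controls by this sum of scaled values. For MSC 5 and MSC 6 this held only after scaling, by factors of 0.804 and 0.407 that raise their values.

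**Figure D2:**
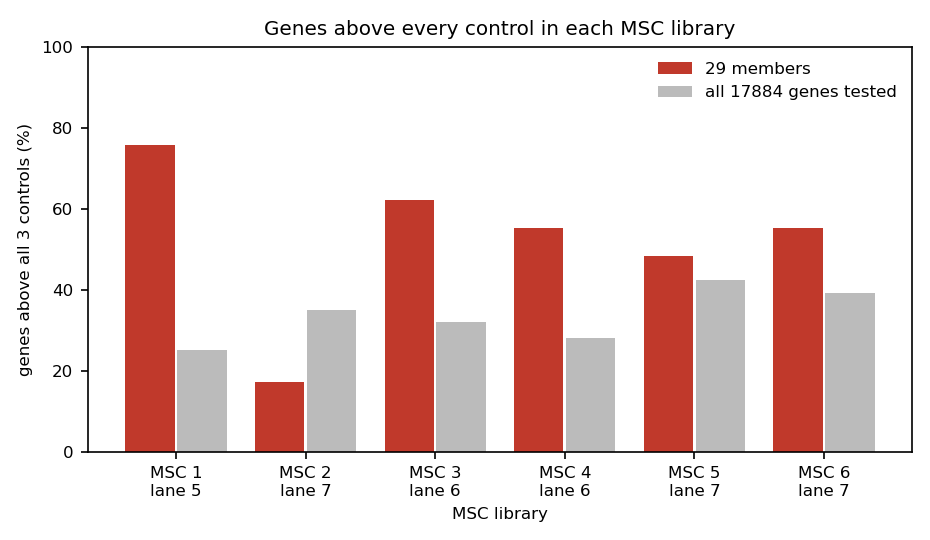
Share of the 29 members (red) and of all 17884 genes tested (grey) that lay above all 3 controls in each MSC library, in percent. The members exceed the share of all genes most in MSC 1 (75.9% against 25.1%) and fall short of it in MSC 2 (17.2% against 35.1%).

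Within lanes 5 and 6, where both groups were sequenced, 27 of 29 members had a positive log2 fold change, against 48.7% of genes. The median of the members was 0.28, and that of all genes -0.01. In 14 members (48.3%) MSC 1, MSC 3 and MSC 4 all lay above all 3 controls, against 9.45% of genes, and in 0 members all 3 lay below, against 9.81%. The 14 were MCM6, CDC6, TOP2A, CCNE2, CCNB1, CDK1, AURKB, TTK, TPX2, CENPF, CENPE, KIF11, KIF20A and UBE2C, which act from origin licensing to mitotic exit. In limma on these 6 libraries, with no term for the lane, 11 members had an unadjusted p under 0.05 and were higher (5.58% of 17177 genes). At that p 0 members were lower (6.52%). None passed an adjusted p of 0.05 (0.0408% of genes, 7 in number, did), the smallest being 0.0837 for KIF11. In lane 5 alone, 27 members were higher in MSC 1 than in the mean of both controls, against 48.3% of genes. In lane 6 alone, 20 members were higher in the mean of MSC 3 and MSC 4 than in control 3, against 50.2%, and 19 were higher in both lanes, against 31.8%. The median log2 difference of the members was 0.43 in lane 5 and 0.14 in lane 6, against -0.007 and 0.001 over all genes tested. With the lane as a covariate in all 9 libraries, 3 members had an unadjusted p under 0.05 in limma, as did 451 of 17884 genes.

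In MSC 1, MSC 3 and MSC 4 the summed level of erythroid genes (HBB, AHSP, ALAS2 and SLC4A1, 4 of 5 listed) was 71.3 to 429 scaled RPKM, against 4.79 to 38.6 in the controls. HBB, which overlaps other genes in the table, made up most of the sum, at 69.4 to 422 against 4.56 to 37.1. AHSP and ALAS2 were also above the controls there, whereas SLC4A1 had 27 reads in control 1 and 1, 0 and 4 in these libraries. AHSP and SLC4A1 were at 0 in some libraries. MSC 6, of lane 7, had the highest erythroid sum, 540. MSC 3 had the highest sums of macrophage genes (220, against 79.9 to 113 in the controls) and of T and NK cell genes (83.8, against 17.3 to 30.0). Smooth muscle genes summed to 159 in MSC 3, to 757 in MSC 4 and to 1740 in MSC 1, against 380 to 495 in the controls, and reached 5530 in MSC 5. Fibroblast genes summed to 9450 to 12100 in MSC 1, MSC 3 and MSC 4, against 8280 to 19300 in the controls. Endothelial genes summed to 40.7 to 62.7 in the same MSC libraries, against 25.0 to 71.7 in the controls. The part of these cell types in the values of the members was not tested.

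**Figure D3:**
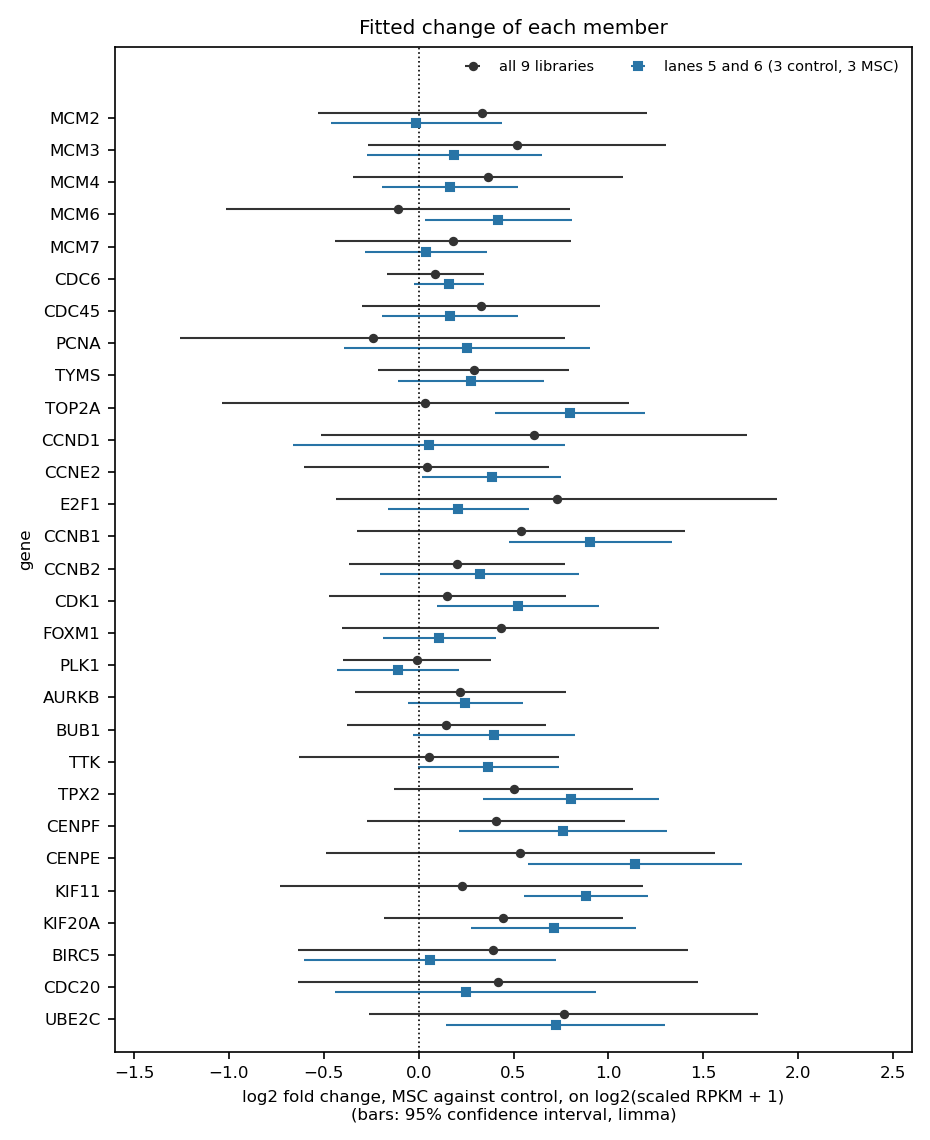
Log2 fold change (MSC against control, log2(scaled RPKM + 1) scale) of each member with its 95% confidence interval from limma, for all 9 libraries (black circles) and for lanes 5 and 6 (blue squares). With all 9 libraries every interval includes 0, and in lanes 5 and 6 the intervals of 11 members lie above 0 before adjustment.

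Spindle and kinetochore genes had the highest median log2 fold change of the 7 roles in lanes 5 and 6, 0.78 over 6 members, against 0.43 over all 9 libraries. KIF11, the plus-end directed kinesin that pushes spindle poles apart (chromosome 14, 104125898 to 104177379 in the deposited table), stood at 3.21, 3.51 and 3.94 scaled RPKM in the 3 controls. In the MSC libraries it ranged from 1.34 to 7.33 with a median of 5.37. In MSC 1, MSC 3 and MSC 4 it was 7.22 to 7.33, above every control, while MSC 2 and MSC 5 were below every control and MSC 6 was among them. Over all 9 libraries its log2 fold change was 0.23 ± 0.43 (SE, limma, adjusted p 0.921), and in lanes 5 and 6 it was 0.88 ± 0.14 (p 0.000401, adjusted p 0.0837), with adjusted p from 0.0837 to 1 over the 21 other settings.

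CENPE, the kinesin that carries chromosomes to the spindle equator (chromosome 8, 117889009 to 117965792), was 2.20, 2.84 and 3.45 in the controls. Its MSC values ran from 1.28 in MSC 5 to 9.26 in MSC 4 with a median of 5.31. MSC 1 to MSC 4 all lay above the controls, MSC 6 lay within their range and MSC 5 below it. In lanes 5 and 6 the MSC mean was 7.40 ± 2.07 (SD, n = 3) against 2.83 ± 0.623 (SD, n = 3), and the log2 fold change was 1.14 ± 0.24 (SE, limma, adjusted p 0.134, and 0.134 to 1 over the settings).

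TPX2, which activates Aurora A on spindle microtubules, was 3.81, 4.12 and 6.25 in the controls and 4.61 to 9.50 in the MSC libraries, with a median of 7.19. The 3 MSC libraries of lanes 5 and 6 exceeded all controls, and the 3 of lane 7 lay inside the control range. CENPF, a large outer kinetochore protein, was 2.80, 3.74 and 4.89 in the controls and 3.61 to 8.94 in the MSC libraries, with a median of 5.07, and again MSC 1, MSC 3 and MSC 4 stood above the controls. KIF20A, a midzone kinesin needed for cytokinesis, was 3.51, 2.999 and 4.53 in the controls and 3.01 to 7.21 in the MSC libraries, where MSC 2 was the only one not above all controls. Its median of 5.46 lay above the highest control.

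BIRC5 (survivin), the chromosomal passenger subunit that inhibits apoptosis, differed from the other 5. Its controls were 0.666, 1.88 and 1.56, and the MSC libraries ran from 0.580 in MSC 2 to 5.44 in MSC 5 with a median of 1.77. MSC 5 and MSC 6 alone lay above the controls, and in lanes 5 and 6 its log2 fold change was 0.06 ± 0.28 (SE, limma, adjusted p 0.948). BIRC5 overlaps TK1 in the table, whose reads it may share.

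**Figure D4:**
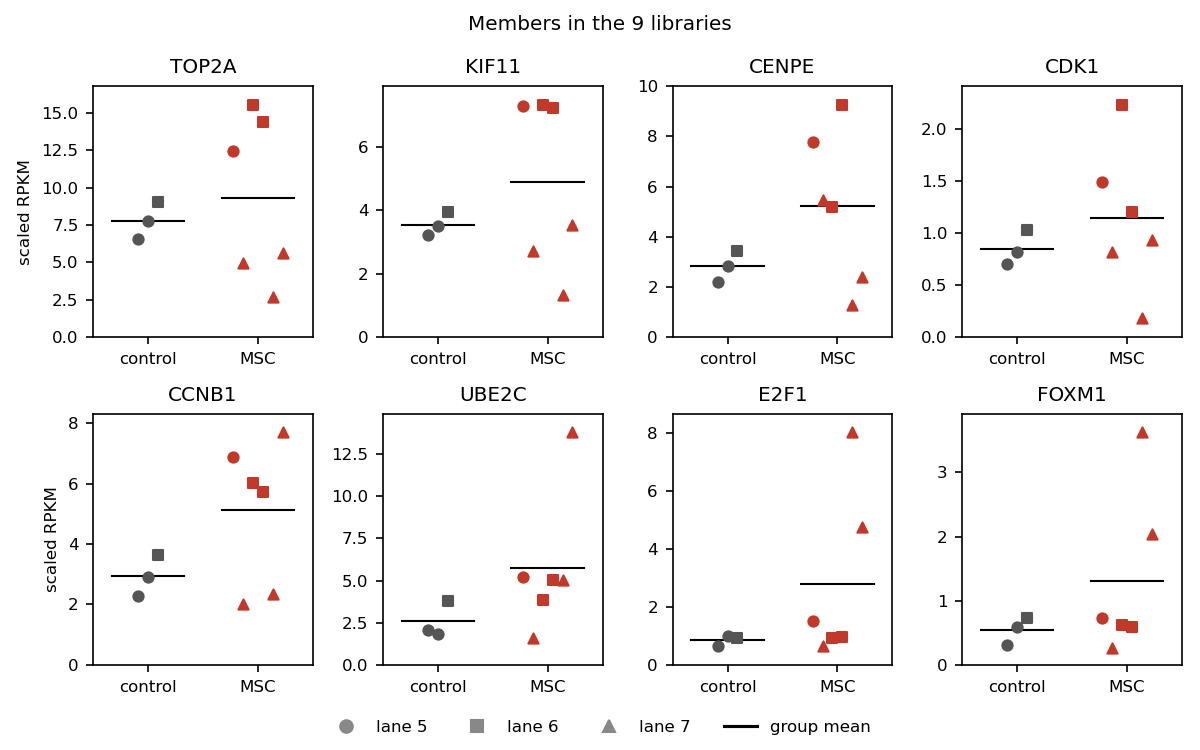
Scaled RPKM of 8 members in the 3 control (grey) and 6 MSC libraries (red), with the sequencing lane as marker shape and the group mean as a line. In TOP2A, KIF11, CENPE and CDK1 the MSC libraries of lanes 5 and 6 lie above the controls and MSC 5 below them, whereas in E2F1 and FOXM1 MSC 5 and MSC 6 lie far above all other libraries.

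Among the genes that drive entry into mitosis, CCNB1 (cyclin B1, the partner of CDK1; chromosome 16, 47338110 to 47348381) was 2.26, 2.90 and 3.63 in the controls. The MSC libraries ran from 2.01 in MSC 2 to 7.69 in MSC 6 with a median of 5.87. Levels in MSC 1, MSC 3, MSC 4 and MSC 6 were 5.72 or more, clear of the controls, while MSC 5 lay among the controls and MSC 2 below them. In lanes 5 and 6 the difference was 0.90 ± 0.18 on the log2 scale (SE, limma, adjusted p 0.126, and 0.126 to 1 over the settings), and over all 9 libraries 0.54 ± 0.39 (adjusted p 0.920).

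CDK1, the kinase that triggers mitosis, was 0.700, 0.820 and 1.03 in the controls and 0.182 to 2.24 in the MSC libraries, with a median of 1.07. The MSC libraries of lanes 5 and 6 lay above the controls, MSC 2 and MSC 6 within their range, and MSC 5, with 40 reads, below. CCNB2, cyclin B2, was 1.07, 1.74 and 2.55 in the controls and 1.21 to 2.47 in the MSC libraries, so that every MSC value lay inside the control range. CDK1 overlaps RHOBTB1 in the table.

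FOXM1, the factor that turns on genes of G2 and mitosis, was 0.317, 0.587 and 0.736 in the controls. Its MSC values ran from 0.260 in MSC 2 to 3.62 in MSC 5 with a median of 0.675. MSC 5 and MSC 6 (2.04) stood above all controls, and MSC 1, MSC 3 and MSC 4 within their range. The ratio of FOXM1 to CDK1 was 0.280 to 0.716 in the libraries other than MSC 5 and MSC 6. It was 2.19 in MSC 6 and 19.9 in MSC 5, where CDK1 had 40 reads. FOXM1 overlaps RHNO1 and TEX52 in the table.

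The 4 mitotic kinases and checkpoint genes had a median log2 fold change of 0.10 in all 9 libraries and 0.31 in lanes 5 and 6. AURKB, the kinase of the chromosomal passenger complex, was 1.55, 1.57 and 1.65 in the controls, a narrow range. In the MSC libraries it ran from 0.940 in MSC 2 to 2.76 in MSC 6 with a median of 2.07, and the 5 libraries other than MSC 2 all lay above the controls. Its log2 fold change was 0.22 ± 0.25 (SE, limma, adjusted p 0.920).

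TTK (MPS1), which starts the spindle checkpoint, was 1.10, 1.36 and 1.59 in the controls and 0.230 to 2.29 in the MSC libraries, with a median of 1.77. MSC 1, MSC 3, MSC 4 and MSC 6 lay above the controls and MSC 5, with 46 reads, far below. BUB1, a checkpoint kinase of the kinetochore, was 1.02, 1.17 and 1.85 in the controls and 0.938 to 2.23 in the MSC libraries, with a median of 1.58, and the groups overlapped. PLK1, which acts on centrosomes and mitotic entry, was 1.21, 0.788 and 0.974 in the controls and 0.666 to 1.37 in the MSC libraries. Its median of 0.950 lay inside the control range, and its log2 fold change was -0.01 ± 0.18 (SE, limma, adjusted p 0.992).

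UBE2C, the ubiquitin-conjugating enzyme of the anaphase-promoting complex (chromosome 17, 48018400 to 48021534), had the highest log2 fold change of the members. It was 2.07, 1.86 and 3.802 in the controls and 1.61 to 13.8 in the MSC libraries, with a median of 5.04. MSC 6 held the highest value, MSC 3 (3.85) was just above control 3, and MSC 2 was below every control. The log2 fold change was 0.76 ± 0.46 (SE, limma, p 0.129, adjusted p 0.920).

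CDC20, the activator of that complex, was 0.809, 1.93 and 2.35 in the controls and 0.642 to 8.14 in the MSC libraries, with a median of 2.45. MSC 1, MSC 5 and MSC 6 lay above the controls and MSC 2 below. MSC 5 held the highest value of CDC20. With its low CDK1 (40 reads) the ratio of CDC20 to CDK1 was 44.7 there, against 0.664 to 3.31 in the other 8 libraries.

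The helicase subunits differed in how they lay across the libraries. MCM2, MCM3, MCM4, MCM6 and MCM7 are subunits of the hexameric MCM2-7 ring, which unwinds DNA at the replication fork. In the 3 controls, MSC 1 and MSC 2 their order by level was MCM7, MCM6, MCM3, MCM4 and MCM2. MCM7 was 7.6, 7.88 and 8.03 in the controls and 7.52 to 15.99 in the MSC libraries, with a median of 8.001.

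MCM6 (chromosome 15, 15917042 to 15985405) was 6.72, 6.48 and 6.45 in the controls, close together. Its MSC values ran from 2.06 in MSC 5 to 11.1 in MSC 3 with a median of 7.11. All 3 MSC libraries of lanes 5 and 6 lay above the controls and all 3 of lane 7 below them. In MSC 3 and MSC 4 MCM6 exceeded MCM7, whereas in MSC 5 it was the lowest of the 5 subunits and in MSC 6 the third. The log2 fold change was -0.11 ± 0.41 over all libraries (SE, limma, adjusted p 0.949) and 0.42 ± 0.16 in lanes 5 and 6 (adjusted p 0.371, and 0.371 to 1 over the settings).

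MCM2 was 1.11, 2.14 and 1.53 in the controls and 1.27 to 6.53 in the MSC libraries, with a median of 1.66. MCM3 was 2.08, 3.03 and 3.41 in the controls and 2.83 to 10.3 in the MSC libraries, with a median of 3.69, and MSC 3 was the only one not above all controls. MCM4 was 1.96, 2.601 and 2.25 in the controls and 1.94 to 6.81 in the MSC libraries, with a median of 2.75. In each of these 3 subunits MSC 5 was highest and MSC 6 second, and the other MSC libraries lay near the controls. The ratio of MCM2 to MCM6 was 0.133 to 0.329 in 7 libraries, 0.745 in MSC 6 and 3.17 in MSC 5.

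**Figure D5:**
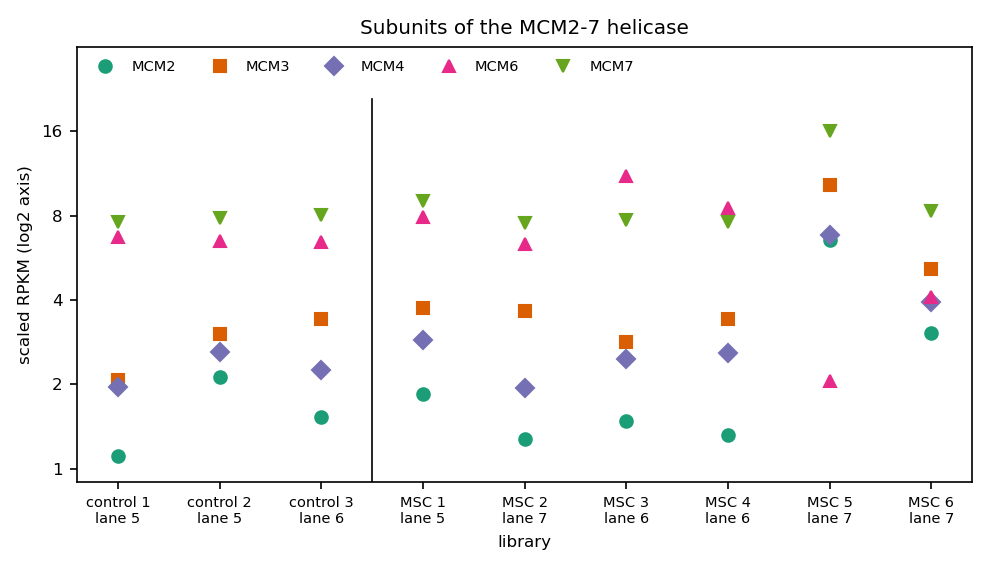
Scaled RPKM (log2 axis) of the 5 measured subunits of the MCM2-7 helicase in each library, with sequencing lane. MCM6 lies just under MCM7 in the controls and above it in MSC 3 and MSC 4, and in MSC 5 it is at 2.06 while the other 4 subunits are at 6.53 to 15.99.

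CDC45, which joins the ring to form the active helicase, was 1.66, 2.11 and 2.09 in the controls and 2.09 to 5.47 in the MSC libraries, with a median of 2.35. MSC 1 lay just under control 2 and the other 5 MSC libraries above all controls, MSC 5 by the most. CDC6, which loads the ring onto origins, was the lowest member of this group at 0.385, 0.383 and 0.488 in the controls. In the MSC libraries it ran from 0.336 to 0.612 with a median of 0.551, where MSC 1 to MSC 4 lay above the controls and MSC 6, with 26 reads, below.

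The DNA synthesis genes were split. TOP2A, the topoisomerase that untangles sister chromatids (chromosome 12, 22001336 to 22028454), was 6.54, 7.77 and 9.03 in the controls. The MSC libraries ran from 2.72 in MSC 5 to 15.6 in MSC 3 with a median of 9.04. MSC 1, MSC 3 and MSC 4, at 12.4 or more, were above every control, and the 3 libraries of lane 7 below every control, with no MSC library in between. Its log2 fold change was therefore 0.03 ± 0.48 over all libraries (SE, limma, adjusted p 0.988) and 0.80 ± 0.17 in lanes 5 and 6 (adjusted p 0.135, and 0.135 to 1 over the settings).

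PCNA, the sliding clamp of the replication fork, was 8.87, 11.3 and 8.82 in the controls and 2.77 to 18.1 in the MSC libraries, with a median of 9.31. MSC 3 lay above the controls, MSC 2 and MSC 5 well below, and the others near them, and its log2 fold change of -0.24 ± 0.46 was the lowest of the members (SE, limma, adjusted p 0.921). TYMS, which makes thymidylate, was 3.23, 2.45 and 2.53 in the controls and 2.82 to 4.27 in the MSC libraries. Its median of 3.61 lay above the highest control, and MSC 1, MSC 2, MSC 3 and MSC 6 exceeded all controls. PCNA overlaps TMEM230 and CDS2, and TYMS overlaps ENOSF1.

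Among the genes of the passage from G1 to S phase, E2F1, an activator of S phase genes (chromosome 17, 37178598 to 37189841), was 0.643, 0.994 and 0.914 in the controls. Its MSC values ran from 0.649 in MSC 2 to 8.02 in MSC 5 with a median of 1.23. MSC 5 and MSC 6 (4.76) stood far above every other library, MSC 1 (1.51) was above the controls, and MSC 2, MSC 3 and MSC 4 lay within their range. The log2 fold change was 0.73 ± 0.52 (SE, limma, adjusted p 0.920) over all libraries and 0.21 ± 0.16 in lanes 5 and 6 (adjusted p 0.636, and 0.636 to 1 over the settings).

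CCND1 (cyclin D1), which links growth signals to the cycle, was 5.25, 3.28 and 3.42 in the controls and 2.43 to 20.0 in the MSC libraries, with a median of 5.26. MSC 5 and MSC 6 (10.5) were the highest, MSC 1 (5.97) was next and MSC 3 was below every control. CCNE2 (cyclin E2), which with CDK2 starts S phase, was 1.59, 1.26 and 1.24 in the controls and 0.337 to 2.26 in the MSC libraries, with a median of 1.59. MSC 1, MSC 3 and MSC 4 lay above the controls and MSC 5, with 47 reads, far below. CCNE2 overlaps INTS8 in the table.

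MSC 5 held 14 members above and 9 below the controls. Above were MCM2, MCM3, MCM4, MCM7, CDC45, CCND1, E2F1, FOXM1, PLK1, AURKB, KIF20A, BIRC5, CDC20 and UBE2C, with a median listed length of 3168.5 bases. Below were MCM6, PCNA, TOP2A, CCNE2, CDK1, BUB1, TTK, CENPE and KIF11, with a median length of 5675 bases. Over all protein-coding genes tested, the median length was 4038 bases for those above and 4801 bases for those below. Both sets hold genes of S phase and of mitosis, and the part of gene length in the split was not tested.

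The 3 genes matched by gene identifier through a table of gene names, and kept out of the counts, lay in the same range. NUSAP1, a microtubule-bundling protein, was 4.05 ± 0.522 in the controls (SD, n = 3) and 4.91 ± 1.87 in the MSC libraries (SD, n = 6). BUB1B, a checkpoint protein, was 2.93 ± 0.570 and 3.86 ± 1.36, and CCNE1, cyclin E1, was 0.650 ± 0.148 and 0.434 ± 0.181 (SD, same n). Their log2 fold changes were 0.16, 0.26 and -0.21, with adjusted p from 0.920 to 0.922 in limma.

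Other genes of the pathway, taken from 4 further lists, showed 0 genes past an adjusted p of 0.05 in limma. Those named below had the smallest p of their list, apart from MYC, CDKN1A, CDKN1B and CDK4. Their place against the controls is thus partly a result of that choice. The share of all genes with 5 of 6 MSC libraries beyond the controls was not counted. Of 29 other replication genes, 18 had a positive log2 fold change, a share near the 55.3% of all genes tested, with a median of 0.17 against 0.04. MCM10, which helps to open the helicase at origins, was 6.34, 5.58 and 6.56 in the controls. In the MSC libraries it ran from 8.68 to 12.1 with a median of 10.02. All 6 lay above all controls, as in 1.97% of genes (log2 fold change 0.63 ± 0.22, SE, limma, p 0.0178, adjusted p 0.920). MCM10 overlaps OPTN in the table. CHAF1B, a histone chaperone subunit, and ORC1, an origin recognition subunit, had log2 fold changes of 0.42 and 0.27 and 5 of 6 MSC libraries above the controls.

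Among other mitotic genes 26 of 28 rows had a positive log2 fold change, against 55.3% of all genes tested. The median was 0.17 in all libraries and 0.45 in lanes 5 and 6. This count depended on the processing and ran from 17 to 26 over the alternatives. It was 17 with no low-value filter, where 63.5% of all genes were positive, and 18 without control 2 and MSC 1 (54.9%). With no scaling factor it was 20 (46%), and in lanes 5 and 6 it was 23 (48.7%). The 28 rows stand for 27 symbols, since CDC25C has a protein-coding and a pseudogene row at the same position. NEK2, a centrosome kinase, was 0.460, 0.135 and 0.434 in the controls and 0.555 to 1.06 in the MSC libraries with a median of 0.788. All 6 exceeded all controls, as in 1.97% of genes (log2 fold change 0.41 ± 0.15, SE, limma, p 0.0193, adjusted p 0.920). ANLN (anillin), a scaffold of the contractile ring, was 4.33, 4.55 and 6.05 in the controls and 5.04 to 15.8 in the MSC libraries with a median of 10.8, MSC 2 being the only one not above all controls (log2 fold change 0.93, p 0.0260, adjusted p 0.920). ANLN overlaps AOAH and KIAA0895 in the table. CDCA8, a passenger complex subunit, had a log2 fold change of 0.31.

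G1 cyclins, CDKs and partners were divided, 4 of 9 being positive (55.3% of all genes tested) with a median of -0.01. CCND3 had the smallest p of them, with 2.603 ± 0.684 in the controls (SD, n = 3) and 6.03 ± 4.45 in the MSC libraries (SD, n = 6), the latter with a highest value of 14.2 in MSC 5. CCND2 and MYC had log2 fold changes of 0.35 and 0.23, and CDK4 -0.04. CCND2 had 5 MSC libraries above all controls and 1 below, MYC 3 above and 2 below, and CDK4 1 above and 3 below.

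Among cell cycle inhibitors and pocket proteins 6 of 13 were positive (55.3% of all genes tested), with a median of -0.06. CDKN1C (p57), an inhibitor of cyclin-dependent kinases linked to lasting exit from the cycle, had the smallest p of all cell cycle genes tested. It was 2.14, 1.30 and 1.31 in the controls and 0.339 to 0.861 in the MSC libraries with a median of 0.627. These values rest on 57 to 213 reads in the controls and on only 15 to 53 in the MSC libraries. All 6 MSC libraries lay below all controls, as in 1.97% of genes. The log2 fold change was -0.68 ± 0.18 (SE, limma, p 0.00325, adjusted p 0.564, and 0.164 to 1 over the settings).

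CDKN2C (p18), an inhibitor of CDK4 and CDK6 that is itself expressed in cycling cells, lay the other way. It was 2.46, 2.70 and 2.59 in the controls and 3.08 to 8.58 in the MSC libraries with a median of 4.92. All 6 exceeded all controls, as in 1.97% of genes (log2 fold change 0.71 ± 0.31, SE, limma, p 0.0430, adjusted p 0.920). BTG1, an antiproliferative gene, had a log2 fold change of -0.49, with 5 of 6 MSC libraries below all controls and 0 above (p 0.164, adjusted p 0.920, limma). CDKN1A (p21), at 0.32, had 3 MSC libraries above all controls and 1 below. CDKN1B (p27), at -0.06, had all 6 within the range of the controls.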

How the data were processed

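RPKM values per gene were deposited by the authors, with the unit in the column names. No source used here names the aligner, the counter or the use of strand. The builds susScr11 and mm10 appear without a role in the submitters' processing notes, so positions follow the deposited table. RPKM multiplied by gene length plus 1 was a whole multiple of 1 step per library (100% of values within 0.01), which gave back reads; 1 read in a gene of 2 kilobases is worth 0.0105 to 0.0295 RPKM, a limit that covers counting error only.

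A gene was kept if 3 or more libraries reached 10 reads at the median depth and its total was at least 15. RPKM was divided by trimmed-mean factors (trims 0.3 and 0.05). The model was limma-trend on log2(scaled RPKM + 1), which understates the change of low genes, with all 9 libraries and no covariate, using limma 3.58.1 in R 4.3.3 with Benjamini-Hochberg adjustment over 17884 genes and a threshold of 0.05. A count test was planned for counts; the values being RPKM, limma was used. The procedure was tested on simulated data. The simulated libraries shared the same make-up and the planted changes were larger than those of the members. That test therefore does not bear on changes of the size seen here.

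All members found by symbol are named. From each of 4 further lists the rule named up to 3 genes by smallest p, with MYC, CDKN1A, CDKN1B and CDK4. Cell types appear by summed markers: smooth muscle, endothelium, fibroblast, macrophage, T and NK, B and plasma, neutrophil, and erythroid. The members and lists were chosen with earlier results of these data known. Alternatives were other scalings, pseudocounts, filters, limma-voom, lane or replicate number in the model, and subsets of libraries. Reads of overlapping genes may be shared between them. Besides the overlaps named above, KIF20A overlaps BRD8, MCM2 overlaps TPRA1 and PLK1 overlaps ERN2. MCM7 overlaps COPS6, AP4M1, MIR25 and MIR106B.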

Additional observations from a re-analysis of the deposited data

Results flagged for a closer look

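In groups of 6, a library was noted when its gap to the nearest other library was large against the range of the group (Dixon's test at the 95% level). Of 39 values tested in the MSC group, 5 were noted, and chance flags about 1 in 20, here 1.95. On the log2(scaled RPKM + 1) scale, MSC 5 stood above the other MSC libraries for MCM7 (4.09, the next being 3.32) and CDC45 (2.69, the next 1.85), and below them for CCNB2 (1.14, the next 1.69). MSC 2 stood below them for AURKB (0.956, the next 1.59) and for the RPKM summed over the members (76.1, the next 125).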

How the results depend on the processing

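The median log2 fold change of the members stayed positive, at 0.20 to 0.47 over 21 alternatives, and the number of positive members was 23 to 28. Over the same alternatives 46% to 63.5% of all genes tested were positive. The lowest count, 23, occurred at both ends of that range (no scaling factor and no filter), among others. Without MSC 5 and MSC 6, an alternative added after seeing the data, the median was 0.24. There 24 members were positive, against 49% of genes. No member passed an adjusted p of 0.05 in any of 609 refitted values, of which 565 kept their direction and 44 did not; 18 members kept it throughout. The number of genes past the threshold went from 0 to 7 in lanes 5 and 6 and ran from 0 to 22 when libraries were left out one at a time: 22 without control 1 (21 lower), 3 without MSC 3 and 1 without MSC 2. The cause was not tested.

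Signs turned as follows, in log2 fold change. With the lane as a covariate, MCM6 was 0.38 and PCNA 0.23. In lanes 5 and 6, MCM2 was -0.013, MCM6 0.42, PCNA 0.25 and CCND2 -0.042. Without MSC 5 and MSC 6, MCM2 was -0.068, MCM6 0.29, MCM7 -0.0050 and BIRC5 -0.11. Without control 2 and MSC 1, TOP2A was -0.081, CCNE2 -0.072, TTK -0.028, CDK4 0.13 and CDKN1B 0.040. With no scaling factor, TOP2A was -0.095, CCNE2 -0.033 and TTK -0.016, and with median-of-ratios factors PLK1 was 0.013. With no filter, TOP2A was -0.085, CCNE2 -0.032 and TTK -0.021. With a pseudocount of 0.1, CCNE2 was -0.019 and TTK -0.033, and with limma-voom they were -0.050 and -0.079. Leaving out libraries in turn gave -0.27 to 0.13 for MCM6, -0.46 to 0.0076 for PCNA, -0.14 to 0.29 for TOP2A, -0.041 to 0.22 for CCNE2, -0.086 to 0.070 for PLK1, -0.031 to 0.26 for TTK, -0.20 to 0.095 for CDK4 and -0.20 to 0.041 for CDKN1B.

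Replicate numbers 1 to 3 occur in both groups, but same-numbered libraries did not deviate together (correlations 0.22, -0.52 and -0.14). With the replicate block 0 genes passed. The median was 0.26, with 24 positive members against 52% of genes. The block turned MCM2 to -0.021, MCM6 to 0.29, PCNA to 0.0070, FOXM1 to -0.013, BIRC5 to -0.0048, CDC20 to -0.056 and CCND2 to -0.015. Depth limits members such as CDC6, FOXM1, BIRC5 and CDK1, which had fewer than 100 reads in some libraries.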

Other observations

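Cell type genes outside the cell cycle gave the following values over all 9 libraries, and none passed an adjusted p of 0.05 in limma. Of all genes tested, 55.3% had a positive log2 fold change. The 6 smooth muscle genes all had positive log2 fold changes, from 1.33 to 3.18, with sums of 380 to 495 scaled RPKM in the controls and 159 to 5530 in the MSC libraries. All 5 endothelial genes found were positive, with a median of 0.45 and sums of 25.0 to 71.7 and 40.7 to 119.

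Of the 6 fibroblast genes 4 were negative, with a median of -0.08. Their sums were 8280 to 19300 in the controls and 9450 to 43200 in the MSC libraries, and the 43200 of MSC 5 was mostly COL1A1 (23153) and COL3A1 (19765). DCN was 563 to 756 in the controls and 178 in MSC 5, and LUM 341 to 396 and 29.2, the lowest value of each.

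Of the 6 B and plasma cell genes 5 were negative, with a median of -0.81. CD79B, MS4A1, JCHAIN and TNFRSF17 were lower at an unadjusted p under 0.05 in limma, as were 389 of all 17884 genes tested. CD79B had 1 to 10 reads in each MSC library but MSC 5. MS4A1 had a log2 fold change of -0.98 (p 0.00024, adjusted p 0.374, limma) and, like TNFRSF17, all 6 MSC libraries below all controls, as in 1.97% of genes. JCHAIN was 4.07 to 34.9 in the controls and 0.867 to 4.18 in the MSC libraries. The sums, 31.0 to 72.4 and 18.7 to 229, follow CD79A, which was 228 in MSC 6. CD79A overlaps DMRTC2 and ARHGEF1, among others, whose reads it may share. The 3 neutrophil genes tested were all negative, and the 4 found summed to 2.24 to 11.4 and 1.30 to 4.60.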
